A study of Sus scrofa with 3 samples.

Results

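The genes described here are targets of p53 from its cell cycle arrest and stress arm, measured in liver of male pigs on a diet rich in fat and cholesterol (HFC). They were chosen by name. Of 9 names, 7 were entries of the deposited tables under that symbol, among 22945 mRNA features: CDKN1A, MDM2, CCNG1, FAS, SESN1, RRM2B and TP53INP1. ZMAT3 had no entry of that symbol, but the entry LOC100621584 carries the NCBI gene number that RefSeq gives to ZMAT3, so its values are given beside the 7 and kept out of their counts. GADD45A was not matched and was not analysed here.

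Chinese Wuzhishan miniature pigs formed 3 groups: intact (sham-operated) males (IM), castrated males (CM), and castrated males given testosterone propionate (CMT). The dose was 10 mg/kg by weekly injection from the day of castration. The age given is 6 to 7 months, which in the study's methods is that of the pigs when obtained, before acclimation and the diet. All 3 groups ate the HFC diet for 12 weeks, so no library shows liver without it. Total liver RNA of a group was mixed into 1 pool and sequenced as 1 library. The labels give 3 pigs per pool, and the study's methods give 6 pigs per group.

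p53 is a transcription factor that cells stabilise after DNA damage, oncogene activity and metabolic or ribosomal stress, mainly at the level of the protein. Its targets stop the cell cycle, repair DNA, supply nucleotides, limit oxidants, or remove the cell by apoptosis, and MDM2 closes a feedback loop by marking p53 for degradation. Several of these targets also answer to other transcription factors, so a level of their mRNA is not a reading of p53 activity.

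Values are FPKM, fragments per kilobase of transcript on a scale set by the authors for each library, so levels can be compared between genes. The reads behind a value were recovered from the steps in which the values occur, and came to 32196547 in IM against 36125167 in CM and 25418981 in CMT. Ratios are given with 95% exact binomial intervals on these reads. Such an interval covers counting error only, and it is too narrow where the mates of a pair were each counted. With 1 pooled library per group there is no replicate, the variation between pigs is unknown, and no p-value was computed. A gene was counted as changed between libraries at a ratio of at least 1.5-fold if no library had an FPKM under 1, a minimum met by 15613 mRNA features and by all 7 genes. Because the samples are whole liver, more cells of a type and more RNA per cell cannot be told apart.

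The 7 genes did not move as 1 block. Between CM and IM, 3 of them passed 1.5-fold: CDKN1A was higher in CM, while SESN1 and TP53INP1 were lower. Of all features tested, 23.2% passed in this comparison, 11.1% higher and 12.1% lower. With SESN1 alone, 1 of the 7 differed by at least 2-fold, where 9.38% of all features did. MDM2, CCNG1, FAS and RRM2B were 1.20 to 1.46-fold higher in CM, below the threshold. With each library scaled to the total of its recovered reads (the read-total scale) the count was 5, with 4 higher and 1 lower. With the upper quartile as the scale it was 4, with 2 in each direction. The shares of all features were computed on the deposited scale only, so they are no match for these counts. The median log2 ratio of the 7 genes was 0.40, against -0.02 over all features tested. With ZMAT3 added, 2 were higher and 2 lower in CM on the deposited scale, and the median was 0.45.

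**Figure D1:**
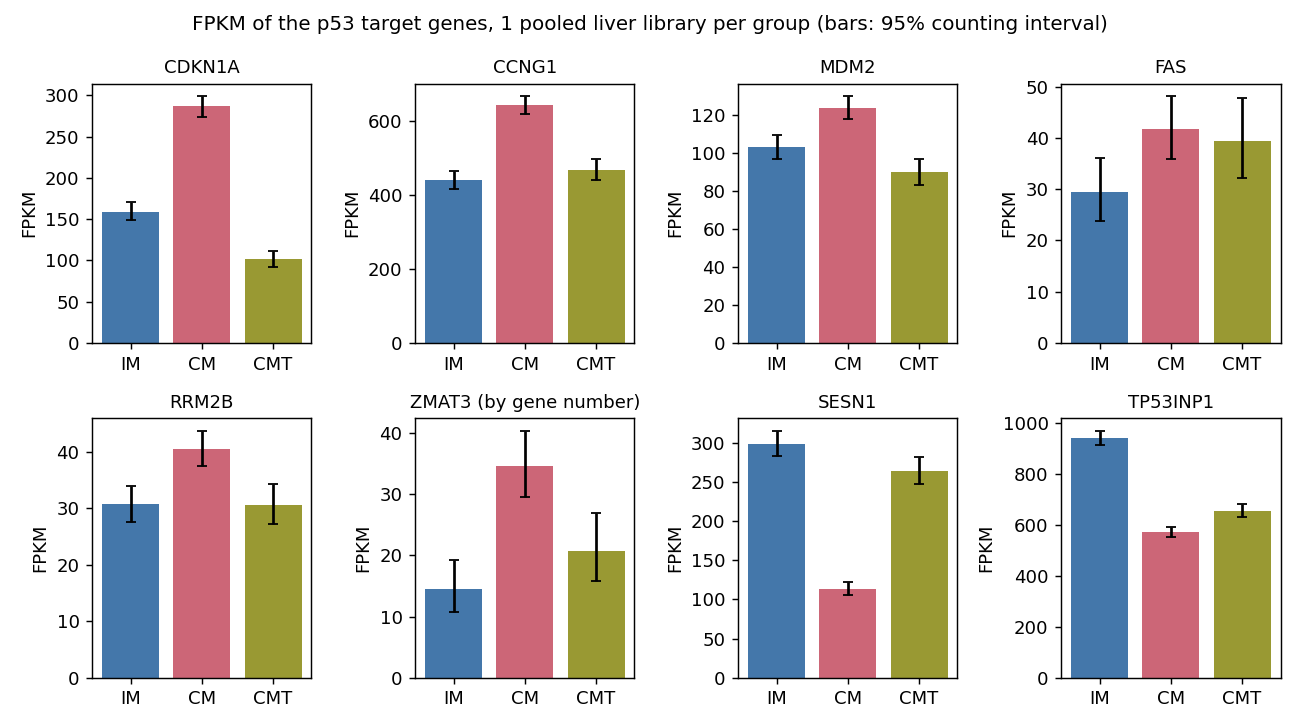
FPKM of 8 p53 target genes (y axis, linear, from 0) in the IM, CM and CMT libraries (x axis), 1 pooled library per bar, with 95% Poisson counting intervals as error bars. CDKN1A, CCNG1, MDM2, FAS, RRM2B and ZMAT3 have their highest bar in CM, whereas SESN1 and TP53INP1 have their highest bar in IM.

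CDKN1A encodes p21, the inhibitor of cyclin-dependent kinases that carries out p53-dependent arrest. Its FPKM was 159 in IM, 287 in CM and then 101 in CMT, from 838, 2057 and 433 recovered reads. CM was the highest library and CMT the lowest, and none of the counting intervals (149 to 170, 274 to 299 and 91.9 to 111) overlapped. The CM to IM ratio was 1.80 (interval 1.66 to 1.95), which exceeded 93.7% of the features tested. From CM to CMT the level was 2.83-fold lower (2.55 to 3.15), and the CMT library was also 1.57-fold below IM (1.40 to 1.77). Of the 7 genes, CDKN1A alone passed 1.5-fold between CMT and IM, where 16.8% of all features did, 6.67% higher and 10.1% lower in CMT. Its interval also left out 1, which held for 9.65% of all features at that fold, a share not matched for read number.

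CCNG1 encodes cyclin G1, a p53 target that recruits a phosphatase to MDM2. It was at 441 in the IM library, 643 in CM and 469 in CMT. Thus CM stood above the other libraries, and the CMT to IM ratio of 1.06 had an interval that held 1 (0.982 to 1.15). The CM to IM ratio was 1.46 (1.36 to 1.56), just under the threshold, and the CMT to CM ratio was 0.729 (0.679 to 0.783).

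MDM2, the ubiquitin ligase of p53, was at 103 in IM against 124 in CM and 89.9 in CMT. The order of the libraries was that of CDKN1A, with a smaller span. CM was 1.20 times IM (1.11 to 1.30), and CMT was 0.726 times CM (0.664 to 0.793).

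RRM2B encodes the p53-inducible small subunit of ribonucleotide reductase, which makes deoxynucleotides outside S phase. It was at 30.7 in the IM library, 40.5 in CM and 30.6 in CMT, so no difference between CMT and IM was detectable at this depth (ratio 0.995, interval 0.851 to 1.16), while CM was 1.32 times IM (1.16 to 1.503). FAS, the death receptor, was at 29.5 in IM against 41.7 in CM and 39.4 in CMT, from 95, 183 and 103 reads. Its CMT value lay near CM, with a CMT to CM ratio of 0.944 (0.734 to 1.21). The interval of its CM to IM ratio, 1.41, ran from 1.10 to 1.83 and widened to 0.982 to 2.04 when every read number was divided by 2 to allow for mates counted apart.

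ZMAT3, a zinc finger protein that binds RNA, was read from the entry matched by gene number. It was at 14.6 in IM, 34.7 in CM and then 20.8 in CMT, from 50, 162 and 58 reads. CM was the highest library, at 2.38 times IM (1.72 to 3.33), and CMT was 1.67-fold lower than CM (1.23 to 2.29). The CMT to IM ratio of 1.43 had an interval that held 1 (0.961 to 2.13).

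SESN1 encodes sestrin 1, which restrains mTORC1 and takes part in the defence against oxidants. It was at 299 in the IM library, 114 in CM and 264 in CMT, from 1291, 669 and 927 reads. CM stood far below the other libraries, in the direction opposite to CDKN1A. The level in CM was 2.63-fold lower than in IM (2.39 to 2.89), a ratio below all but 2.24% of the features tested. In CMT it was 2.32-fold above CM (2.10 to 2.57) and 1.13-fold below IM (1.04 to 1.23).

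TP53INP1 encodes a stress protein of autophagy and cell death. With 939.8 in IM against 571 in CM and 655 in CMT it had the highest level of the members in IM and CMT. CM was 1.64-fold lower than IM (1.57 to 1.72). CMT was 1.15 times CM (1.09 to 1.21), a direction that turned on the read-total scale, and remained 1.43-fold below IM (1.36 to 1.51). TP53INP1 and FAS were thus the members whose CMT value lay nearer to CM than to IM on the log2 scale.

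**Figure D2:**
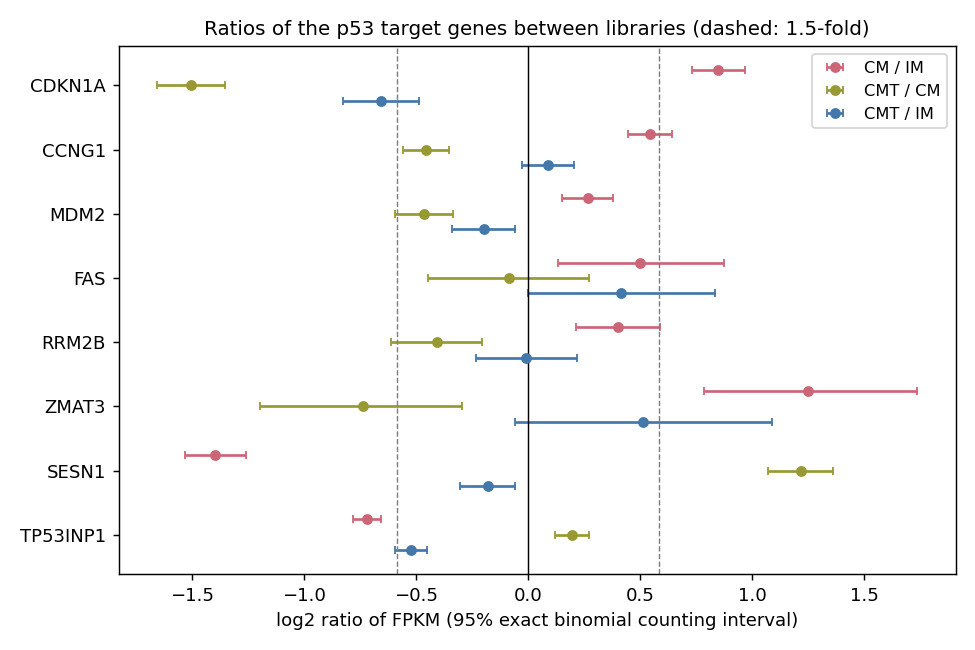
log2 ratios of FPKM (x axis) for 8 p53 target genes (y axis) in the comparisons CM/IM, CMT/CM and CMT/IM, with 95% exact binomial counting intervals and dashed lines at 1.5-fold. SESN1 lies at -1.39 for CM/IM and 1.22 for CMT/CM, opposite to CDKN1A, at 0.85 for CM/IM and 2.83-fold lower in CMT than in CM. The comparisons share libraries and are not independent.

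For CMT versus CM, 2 of the 7 genes passed 1.5-fold, SESN1 higher and CDKN1A lower in CMT, where 25.7% of all features passed, 12.1% higher and 13.5% lower. Both also differed by at least 2-fold, as 11.2% of all features did. With the upper quartile as the scale it was 3, with 1 higher and 2 lower, and on the read-total scale 5, with 1 higher and 4 lower. For these scales no share of all features was computed. The median log2 ratio was -0.41 for the 7 genes and 0.01 over all features. This comparison shares the CM library with the one before, so that a high or low value of that pool enters both with opposite sign. For CMT versus IM, which does not use the CM library, the median was -0.18 for the 7 genes and -0.01 over all features.

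All 7 genes had either their highest or their lowest value in CM, while 26.1% of all features tested had neither there. Of the 7, 5 were highest in CM (35.2% of all features) and 2 were lowest there (38.7%). On the read-total scale the lowest value of TP53INP1 passed from CM to CMT. Whether a counting interval leaves out 1 depends on the number of reads as well as on the ratio. The 7 genes had from 95 reads (FAS in IM) to 4338 (TP53INP1 in IM), while the features tested reach down to an FPKM of 1. Features without recovered reads were counted as not leaving out 1, so the shares that follow are not matched for read number. The counting interval of the CM to IM ratio left out 1 for all 7 genes, and 46.1% of all features had such an interval. With the reads divided by 2 it was 6 of 7, without FAS, against 34.7%. Between CMT and CM it was 6 of 7, again without FAS, against 46.0% of all features, and 6 against 35.0% with the reads divided by 2. Between CMT and IM the interval left out 1 for 4 genes, against 34.9%: CDKN1A, MDM2, SESN1 and TP53INP1. With the reads divided by 2 it was 3 genes, without MDM2, against 23.5%.

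By level, TP53INP1 was first in IM and CMT and CCNG1 first in CM. The 7 genes spanned 31.9-fold in IM, 15.9-fold in CM and 21.4-fold in CMT. Neighbours whose counting intervals overlapped were RRM2B and FAS in all 3 libraries, MDM2 and SESN1 in CM, RRM2B and ZMAT3 in CM, and CDKN1A and MDM2 in CMT. CDKN1A ranked below SESN1 in IM and CMT and above it in CM.

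The scale of the libraries matters for the genes near the threshold. On the deposited scale the median feature had a log2 ratio near 0 in each comparison. Scaling to the total of the recovered reads in place of the authors' factors shifted every log2 ratio of CM to IM by 0.28 and every log2 ratio of CMT to CM by -0.24, which moved the median feature to 0.26 and -0.23. On this read-total scale CCNG1, FAS and RRM2B also passed 1.5-fold between CM and IM, and TP53INP1 no longer did. Relative to the median feature the order of the 7 genes is the same on each scale, because a scale shifts all features alike. The fold changes of CDKN1A and SESN1 kept their direction and stayed past 1.5-fold under each scale tried, whether CM was set against IM or CMT against CM.

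**Figure D3:**
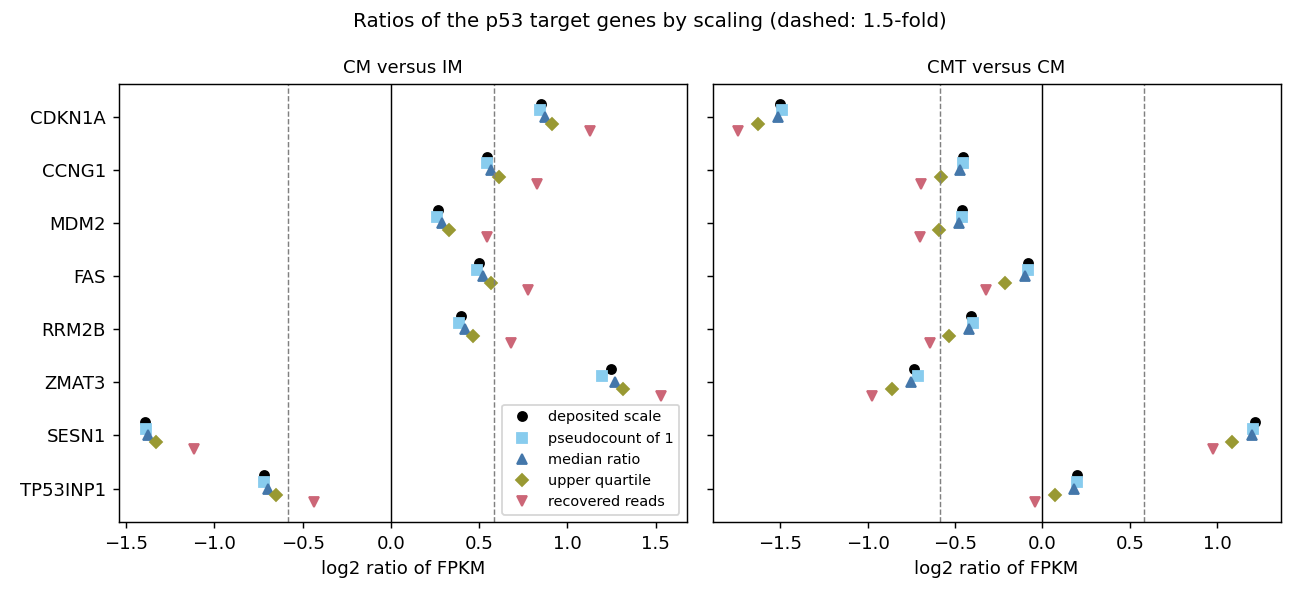
log2 ratios of FPKM (x axis) of 8 p53 target genes (y axis) for CM versus IM and CMT versus CM, on the deposited scale, with a pseudocount of 1, and on 3 other scales, with dashed lines at 1.5-fold. CDKN1A and SESN1 stay outside the dashed lines at each setting, whereas CCNG1 runs from 0.55 to 0.83 for CM versus IM and TP53INP1 crosses 0 for CMT versus CM.

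Paralogues of these genes differed from them in several families. In the sestrin family, SESN2, which is induced by amino acid shortage as well as by p53, was at 157 in IM, 92.4 in CM and then 41.3 in CMT. It was lower in CM like SESN1 but was lowest in CMT, 3.80-fold below IM (3.48 to 4.15). SESN3 was at 16.0 in the IM library, 22.3 in CM and 14.8 in CMT. The recovered lengths were 7194 bases for SESN2 and 9287 for SESN3, and the length of a recovered transcript can be wrong by a common factor.

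For the GADD45 family, stress sensors that bind PCNA and p21, the 2 paralogues of GADD45A were read. GADD45B was at 616 in IM against 294 in CM and 538 in CMT, which is 2.09-fold lower in CM than in IM (1.95 to 2.24) and 1.83-fold higher in CMT than in CM (1.70 to 1.97). GADD45G was at 1194 in IM, 775 in CM and then 567 in CMT, so the testosterone-treated library had the lowest value, 2.11-fold below IM. Neither of them was highest in CM as CDKN1A was.

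RRM2, the S phase counterpart of RRM2B, was at 25.1 in the IM library, 124 in CM and 30.1 in CMT. In IM the paralogues were close, and in CM RRM2 was the larger by far, 4.95 times its IM value (3.54 to 7.09) from 40 and 270 reads. RRM1, the large subunit of the same enzyme, was at 268 in IM against 314 in CM and 284 in CMT. TP53INP2, like TP53INP1, was lower in CM than in IM, by a larger fold, from 215 in IM to 50.9 in CM and 180.5 in CMT, or 4.23-fold lower in CM than in IM (3.88 to 4.62).

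CCNG2 was at 74.7 in IM, 76.4 in CM and then 73.1 in CMT and MDM4, the relative of MDM2 that binds p53 without degrading it, at 29.5, 30.2 and 25.2. The CM to IM intervals of both held 1. CDKN1B (p27), another inhibitor of the p21 family, was at 127 in the IM library, 109.6 in CM and 144 in CMT, with a CM to IM interval of 0.717 to 1.04. ZMAT1 was at 5.19 in IM against 9.23 in CM and 5.72 in CMT, and ZMAT2 at 282, 337 and 282.

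**Figure D4:**
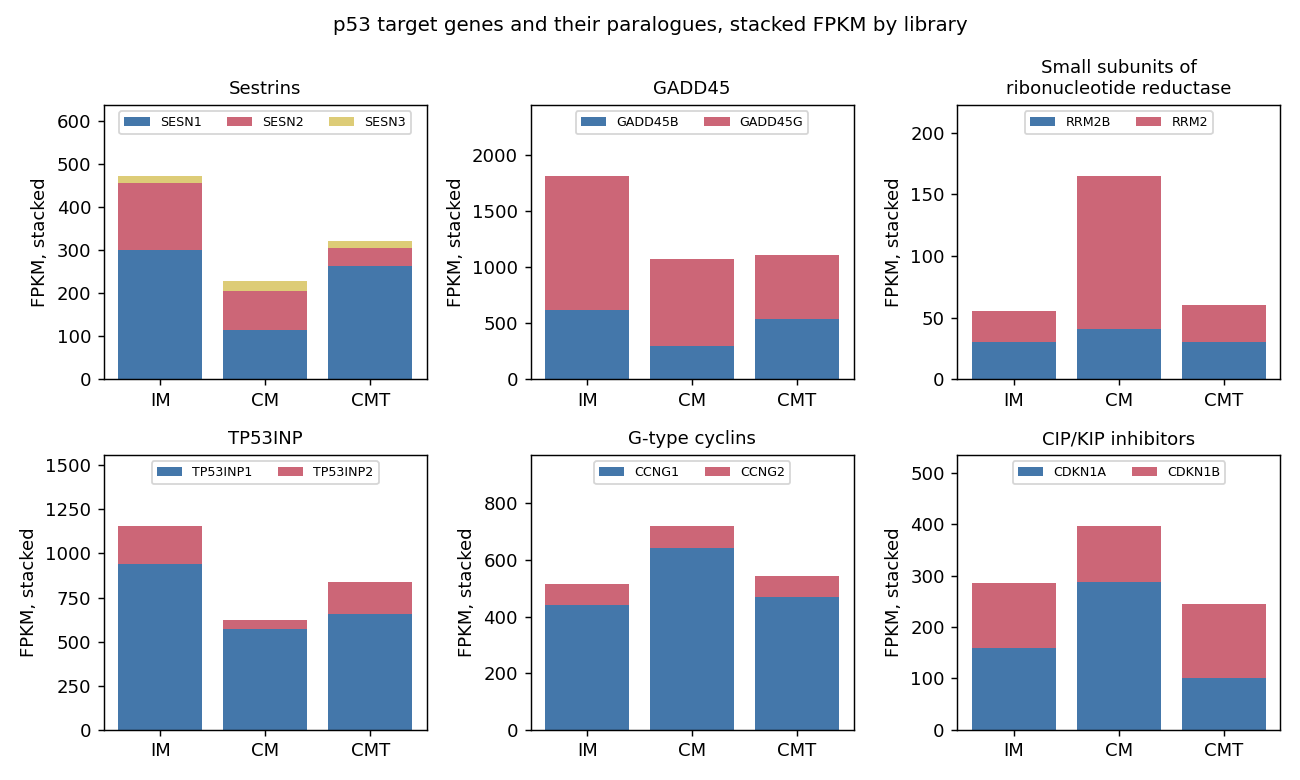
Stacked FPKM (y axis, linear, from 0) of p53 target genes and their paralogues in 6 families, by library (x axis). The sestrin stack is lowest in CM, where SESN1 is at 114, and RRM2 at 124 forms most of the stack of small subunits in CM.

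A list of 40 other p53 target genes was examined in the same way. It was written with earlier results of these data known. The list is a selection, and leaves out for example BAX, an apoptosis gene that the paper reports as upregulated in CM. Of the 40 listed genes, 36 were matched and 34 met the FPKM minimum, which SFN (3, 6 and 0 reads in IM, CM and CMT) and SPATA18 (listed at 0 in each) did not. Of these, 4 stood at least 1.5-fold above IM in the CM library, 5 stood below it by that much, and 25 lay within 1.5-fold, so that 9 of 34 passed where 23.2% of all features did. The split was 5 higher and 4 lower with the upper quartile as the scale, and 7 and 3 on the read-total scale, without a share of all features on either. The median log2 ratio was 0.02, against -0.02 over all features, while 17 of the 34 were highest in CM and 10 lowest there, where 35.2% and 38.7% of all features were.

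The 4 genes that were higher in CM were PHLDA3, TIGAR, AEN and PCNA. PHLDA3, which competes with AKT for membrane lipids, was at 45.5 in IM, 203 in CM and then 61.9 in CMT, and its CM to IM ratio of 4.46 (3.87 to 5.15) was above that of each of the 7 genes. TIGAR, which lowers glycolytic flux, was at 39.7 in the IM library, 99.5 in CM and 53.8 in CMT. AEN, a nuclease of apoptosis, was at 60.5 in IM against 133 in CM and 38.8 in CMT. AEN thus had the order of CDKN1A, with CMT 1.56-fold below IM (1.32 to 1.84). PCNA, the sliding clamp of DNA polymerase that p21 binds, was at 75.5 in IM, 120.3 in CM and then 78.8 in CMT.

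Lower in CM than in IM were CMBL, BTG2, GADD45B, SESN2 and GADD45G. Of these, GADD45B, SESN2 and GADD45G are also on the list of paralogues. Whether each listed gene is a p53 target in pig liver was not tested. CMBL, a hydrolase that is abundant in liver, was at 7421 in the IM library, 2914 in CM and 10479 in CMT. BTG2, an antiproliferative gene whose name was taken up here with its values known, was at 1533 in IM against 716 in CM and 652 in CMT, so it was low in both castrated groups. In CMT, 4 of the 34 genes stood above CM and 9 below it past 1.5-fold (12.1% and 13.5% of all features), and the median log2 ratio was -0.17. Set against IM, 2 were higher and 7 lower in CMT (6.67% and 10.1%), and the median was -0.01.

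**Figure D5:**
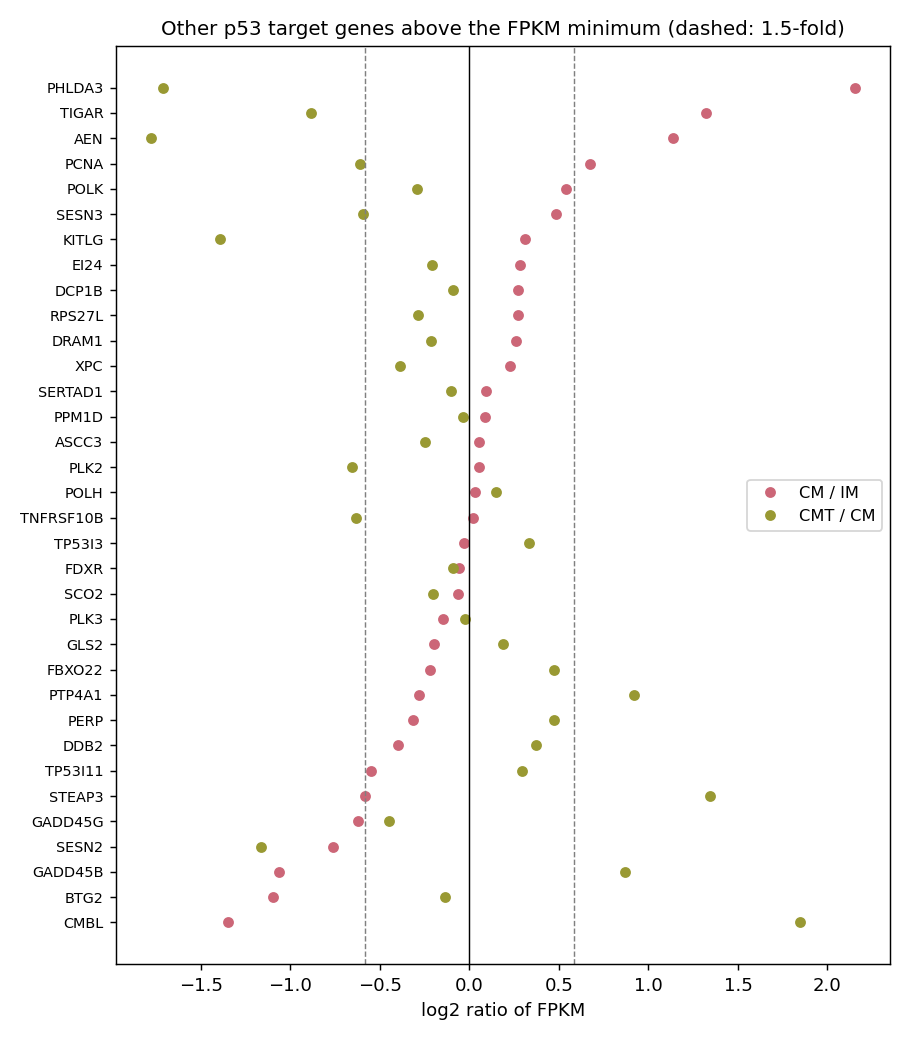
log2 ratios of FPKM (x axis) for CM/IM and CMT/CM in 34 other p53 target genes (y axis), ordered by CM/IM, with dashed lines at 1.5-fold. PHLDA3 lies highest for CM/IM at 2.16 and CMBL lowest at -1.35, and 25 of the 34 lie within 1.5-fold in that comparison.

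Among 19 regulators of p53 (kinases, ubiquitin ligases, acetyltransferases and ribosomal proteins that bind MDM2), 18 were matched and met the minimum. Between CM and IM, 1 was higher and 0 lower past 1.5-fold, where 11.1% and 12.1% of all features were, and the median log2 ratio was -0.04. Between CMT and CM, 1 was higher and 2 lower, where 12.1% and 13.5% of all features were. The regulator that was higher in CM than in IM was CHEK1, the checkpoint kinase of replication stress, at 1.33 in IM, 5.17 in CM and then 1.88 in CMT, from 7, 37 and 8 reads. ATM, the kinase that answers to double-strand breaks, was at 26.0 in the IM library, 28.8 in CM and 24.2 in CMT. Of 24 paralogues and direct partners, a list that holds several genes named above, 8 stood above IM in the CM library and 4 below it past 1.5-fold, where 11.1% and 12.1% of all features did, and the median log2 ratio was 0.30. Between CMT and CM, 3 were higher and 9 lower (12.1% and 13.5% of all features), with a median of -0.29. The cyclins that p21 opposes were among them: CCND1 was at 25.5 in IM against 50.4 in CM and 31.3 in CMT, CCNE1 at 3.97, 14.3 and 4.13, and CCNE2 at 11.3, 17.0 and 7.43. CCND2 rested on 4, 12 and 16 reads, with 2.79 in IM, 6.14 in CM and then 13.7 in CMT. Of the kinases that these cyclins drive, CDK2 and CDK4 had CM to IM log2 ratios of -0.20 and 0.01. CDK6, read from an entry matched by gene number, was 1.44-fold higher in CM than in IM (1.12 to 1.86) and 1.93-fold lower in CMT than in CM (1.43 to 2.64).

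The features whose pair of log2 ratios (CM to IM and CMT to CM) lay nearest to that of CDKN1A, among 12127 with an FPKM of at least 10 in each library, were LOC100623143, SUSD4 and LOC100514231, at Euclidean distances of 0.063, 0.082 and 0.10. SUSD4, a membrane protein with complement control domains, was at 26.1 in the IM library, 49.3 in CM and 16.8 in CMT. With 3 libraries, such a likeness is a description only.

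The lists of cell type markers differed between the libraries to unlike degrees. The defining hepatocyte genes were abundant in every library, with ALB at 690375 in IM against 476360 in CM and 445509 in CMT, and the summed FPKM of 9 hepatocyte markers was 1130114 in IM, 825677 in CM and then 941003 in CMT. ALB was the exception between CMT and CM, since the other 8 of the 9 were higher in CMT, 3 of them past 1.5-fold (12.1% of all features). The median log2 ratio over the 9 was 0.25. Between CM and IM, 8 of the 9 were lower in CM on the deposited scale, 2 of them past 1.5-fold (12.1% of all features), with a median log2 ratio of -0.35. All 10 proliferation markers were highest in CM (35.2% of all features), 9 of them at least 1.5-fold above IM (11.1%). Their summed FPKM was 300.2 in the IM library, 887 in CM and 346 in CMT. Of 10 T and NK cell markers, 9 were highest in CM (35.2% of all features). The summed FPKM of the 10 was 1068 in IM against 1098 in CM and 1014 in CMT, while the median marker was at 56.6, 81.1 and 38.4. Of the 10, 7 were at least 1.5-fold lower in CMT than in CM, where 13.5% of all features were, and the median log2 ratio was -0.92. CD3E was at 53.7 in IM, 79.7 in CM and then 39.0 in CMT. The order CM, IM, CMT of CD3E is that of CDKN1A and MDM2, and with 3 libraries such a shared order is a description only. Cholangiocyte markers summed to 93.8 in the IM library, 167 in CM and 105.5 in CMT over 5 genes. The 4 of them that met the FPKM minimum were all highest in CM (35.2% of all features), and 3 stood at least 1.5-fold above IM (11.1%). The sums over macrophage markers (22116, 20317 and 23173 over 9 genes), stellate cell and fibroblast markers (1552, 1644 and 1386 over 8), endothelial markers (1108, 977 and 1037 over 6) and B and plasma cell markers (203, 176 and 222 over 6), each in the order IM, CM, CMT, had CM to IM ratios of 0.864 to 1.06. These sums follow their most abundant genes: 5 of the 6 B and plasma cell markers were higher in CM than in IM (median log2 ratio 0.25), with POU2AF1 at -1.06. Of the 9 macrophage markers, 7 were lower in CM than in IM on the deposited scale, with a median log2 ratio of -0.18 and a lowest of -2.32. Of the 6 endothelial markers, 5 were lowest in CM on the deposited scale, with a median log2 ratio of CM to IM of -0.31, close in size to the shift of the read-total scale. None of these markers was at 0 in every library. Their part in the values of the p53 target genes was not tested.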

How the data were processed

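Liver RNA of 3 groups of pigs was measured by RNA-Seq as 1 pooled poly-A library per group (groups from the sample titles). The authors checked reads with FastQC, mapped them with TopHat to the pig genome, and deposited for each library an FPKM value for 34579 features. The counting program, the annotation and the factor of each library are not given in the sources used here. FPKM values were used as deposited, without a pseudocount.

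Reads were recovered from the steps of the values. The finest spacing of 1000/FPKM was 1.26, 1.71 and 1.02 in IM, CM and CMT. Of this spacing 2 times was taken (2.51, 3.42 and 2.04), since the reads then sum nearest to the study's uniquely mapped reads. In CMT the recovered reads came to more than the uniquely mapped reads that the study gives. The smallest length up to 10000 bases that makes all 3 read numbers whole within 0.001 was used, so a common factor can be lost. Reads were recovered for 23100 features, 95.2% of those above 0. The recovery was tested on simulated data. An FPKM of 1 on 1 kb stands for 2.51, 3.42 and 2.04 reads, so 3 reads on 1 kb are an FPKM of 1.20, 0.877 and 1.47.

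Comparisons were ratios of FPKM with 95% exact binomial intervals. The genes and lists were chosen with earlier results of these data known. Named genes were the 7 genes found by symbol, list genes past 1.5-fold in CM both against IM and against CMT (at most 10 per list), the paralogues, and the 3 features nearest to CDKN1A. ATM, BTG2, CDK2, CDK4, CDK6, SFN, SPATA18, POU2AF1 and TYMS fall outside this rule and were named with their values known, and ALB and CD3E stand for their marker lists. Over all lists, 13 names were matched by NCBI gene number, 3 by an older symbol and 1 by a synonym, with RefSeq's table for Sscrofa11.1, which differs from the build the authors used, so no coordinates are given. Protein and promoter sequences were not analysed here. Alternatives were a 2-fold threshold, other FPKM minimums (none, 10), a pseudocount of 1, 3 other scales, and a counting interval required to leave out 1. The same with every read number divided by 2 was chosen after seeing the data. Python 3.11.15, numpy 2.4.6, pandas 2.3.3, scipy 1.17.1, numba 0.67.0 and matplotlib 3.10.9 were used.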

Additional observations from a re-analysis of the deposited data

How the results depend on the processing

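No paired analysis was possible because each group is 1 library. Among the 7 genes, a 2-fold threshold left 1 between CM and IM (9.38% of all features) and 0 between CMT and IM (6.14%). For the 34 other p53 target genes it left 6 between CMT and CM (11.2% of all features) and 4 between CMT and IM (6.14%). On the read-total scale 5 of the 7 genes passed between CM and IM and 5 between CMT and CM. The share of all features was not computed on that scale, where the median feature lay at 0.26 and -0.23. The log2 ratios of CM to IM were then 1.13 for CDKN1A, 0.55 for MDM2, 0.83 for CCNG1, 0.68 for RRM2B, -1.11 for SESN1 and -0.44 for TP53INP1. Those of CMT to CM were -1.74 for CDKN1A, -0.70 for MDM2, -0.69 for CCNG1, -0.65 for RRM2B, 0.98 for SESN1 and -0.041 for TP53INP1. With the upper quartile as the scale, CCNG1 was at -0.58 for CMT versus CM, and TP53INP1 at -0.65 between CM and IM and 0.070 between CMT and CM. These moves come from the scales, which shift every log2 ratio of a comparison by the same amount. Other FPKM minimums, a pseudocount of 1, the median ratio as the scale and the required counting interval kept each of the 6 counts within 1.5 times its value. FAS and ZMAT3 rest on few reads, and for FAS no difference between CMT and CM was detectable at this depth.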

Other observations

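Other genes of deoxynucleotide supply were looked up with their values known. TYMS, thymidylate synthase, one of the 10 proliferation markers, stood at 52.8 in IM against 470.4 in CM and 51.3 in CMT, from 67, 814 and 53 reads, a larger CM to IM ratio than that of the 34 other p53 target genes and the 7 genes above the FPKM minimum. RRM2 was at 124 in CM, and RRM2B, the subunit used outside S phase, at 40.5. RRM1, the large subunit, differed less, with a log2 ratio of CM to IM of 0.23.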
